A study of Mus musculus with 48 samples.

Results

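The genes described are those that were muscle-enriched in fed wild-type mice, chosen as genes whose mean log2 signal in gastrocnemius muscle exceeded that in both liver and epididymal white adipose tissue (eWAT) by more than 2, which is a 4-fold difference. The rule found 486 of the 9955 genes tested, or 4.88%, against 674 liver-enriched and 295 eWAT-enriched genes found by the same rule turned to those tissues. Tissues came from male mice on the C57Bl/6J background, 3 months of age and fed ad libitum, and were hybridized to Illumina MouseRef-8 bead arrays, on which each transcript is read by a short probe. The 9 arrays of the comparison hold 3 of WT muscle, 3 of WT liver and 3 of WT eWAT. A second set of 9 arrays, not used by the rule, holds the same tissues of FGF21-Tg mice, in which fibroblast growth factor-21 (FGF21, a fasting hormone made by liver) is expressed in hepatocytes from the apoE promoter. Muscle arrays of calorically restricted and of fasted mice also enter 1 comparison within a chip, described below. An array carries labeled RNA of 1 mouse or of a small pool, so that n counts arrays and p-values measure the spread between arrays. The study asked how an excess of FGF21 or nutrient deprivation changes these tissues, and the tissue comparison gives the baseline of each.

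The gastrocnemius is a mixed limb muscle in which fast-twitch fibers predominate. A fiber contracts when the nerve releases acetylcholine at the synapse, calcium leaves the sarcoplasmic reticulum, troponin on the thin actin filament binds it, and myosin heads of the thick filament pull on actin. The energy comes from phosphocreatine, glycogen and fatty acids, and muscle often makes its own form of an enzyme that liver and fat make from another gene.

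Replicates correlated at 0.989 to 0.990 in WT muscle, 0.984 to 0.988 in WT liver and 0.933 to 0.989 in WT eWAT, while WT muscle correlated with WT liver at 0.727 to 0.735 and with WT eWAT at 0.817 to 0.863 (Pearson's r across genes, which are not independent replicates). Between 43.0 and 56.3% of probes were detected on an array, and with 3 arrays in a group the precision is limited by their number. One library stood apart. WT eWAT replicate 1 held 249 genes more than 2 above the mean of the other WT eWAT arrays, against 25 for replicate 2 and 4 for replicate 3, and genes of sperm and testis were among them. Prm1, which packs sperm DNA, was at 15.91 on WT eWAT replicate 1 against 8.27 and 8.91 on replicates 2 and 3, and Odf2, a protein of the sperm tail, at 12.86 against 6.54 and 6.15 (both genes named after their values were seen). Because 21 muscle-enriched genes were among the 249, values that moved by over 1.5 times without it, and counts that changed, are given both ways. All WT muscle arrays were on chip 6, the WT liver arrays on chips 4 and 5 and the WT eWAT arrays on chip 5, so that chip and tissue cannot be told apart in the wild-type comparison. Chips 4 and 6 also hold other arrays that allow comparisons within a chip, given below.

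The label of the tissue was checked with markers. Ckm, the creatine kinase of muscle that rebuilds ATP from phosphocreatine, had a log2 signal of 15.88, 15.90 and 15.95 in WT muscle, 4.69, 4.58 and 5.17 in WT liver, and 4.98, 4.92 and 5.06 in WT eWAT. It was not detected in either other tissue, and the groups were far apart. All 10 skeletal muscle markers were muscle-enriched, and their summed linear signal was 517000 to 526000 in WT muscle, 414 to 422 in WT liver and 667 to 2870 in WT eWAT. Hepatocyte markers summed to 1390 to 2200 in WT muscle against 524000 to 530000 in WT liver, and 1 of 13 was detected on all WT muscle arrays. Adipocyte markers summed to 39000 to 42700 in WT muscle, 3910 to 6870 in WT liver and 281000 to 312000 in WT eWAT. Of these 11 genes, 8 were detected on all WT muscle arrays. Adipoq, the hormone adiponectin made by adipocytes, was at 11.10, 10.37 and 10.40 in WT muscle, 5.36, 6.13 and 5.74 in WT liver and 15.87, 15.89 and 15.93 in WT eWAT. The part of adipocytes within the muscle samples in the results was not tested. In whole tissue, fewer cells of a type and less RNA per cell cannot be told apart.

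**Figure D1:**
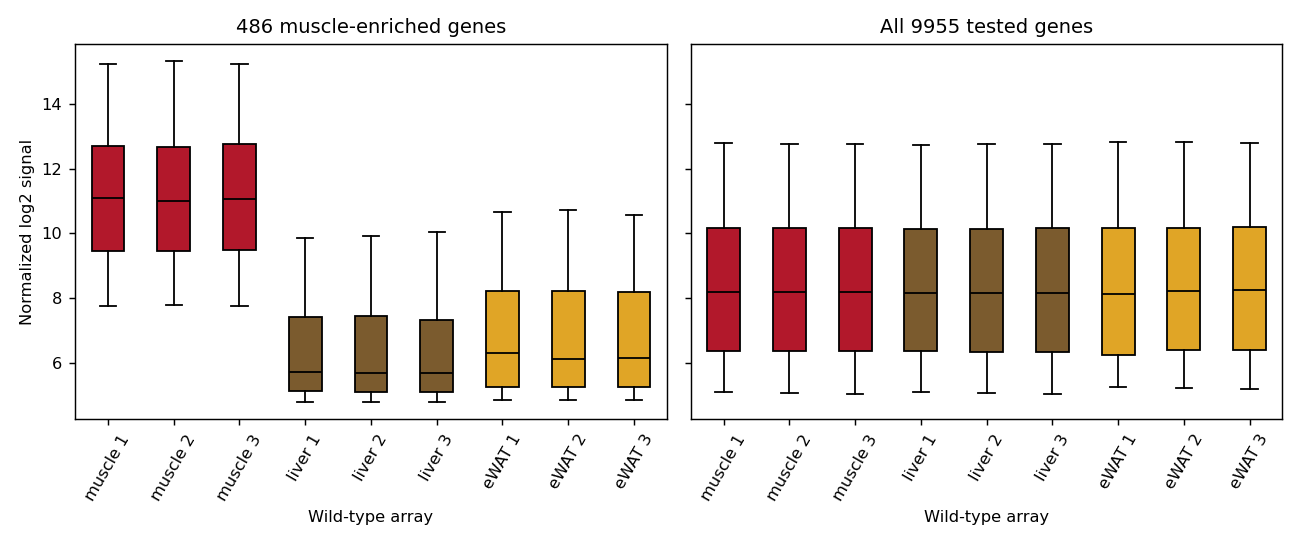
Normalized log2 signal (vertical axis) of the 486 muscle-enriched genes (left) and of all 9955 tested genes (right) on the 9 wild-type arrays, in the order muscle, liver, eWAT. Boxes span the quartiles with the median, and whiskers the 5th to 95th percentile. The muscle-enriched genes had a median of their muscle means of 11.08, against 8.18 over all tested genes, and lay low on every liver and eWAT array.

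Sequences before the transcription starts of 6 muscle-enriched genes are shown, because the factors that drive muscle genes are known from motifs near the start. They were picked after the motif search, so their matches are not typical of the leading genes. Ckm, Mylpf, Myh4 and Pvalb are among the 12 largest bounds given below, while Acta1 and Pgam2 are in neither ranking of 12 leading genes. Each window is the 250 bases before the start in RefSeq (GRCm38.p6), read 5′ to 3′ on the gene's strand. Ckm lies at chr7:19410844-19411093 (plus strand), Mylpf at chr7:127211358-127211607 (plus), Myh4 at chr11:67237562-67237811 (plus), Pvalb at chr15:78206401-78206650 (minus), Acta1 at chr8:123894776-123895025 (minus) and Pgam2 at chr11:5803797-5804046 (minus). Capitals mark matches on either strand to the E-box CANNTG that is bound by MyoD and its relatives, the MEF2 consensus, the CArG box of serum response factor, the TATA box TATAAA and the M-CAT element CATTCC of TEAD factors.
Ckm: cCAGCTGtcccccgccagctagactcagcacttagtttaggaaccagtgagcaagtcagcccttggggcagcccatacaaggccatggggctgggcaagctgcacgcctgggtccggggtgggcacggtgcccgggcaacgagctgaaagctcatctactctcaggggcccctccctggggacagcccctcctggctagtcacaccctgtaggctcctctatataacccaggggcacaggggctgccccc
Mylpf: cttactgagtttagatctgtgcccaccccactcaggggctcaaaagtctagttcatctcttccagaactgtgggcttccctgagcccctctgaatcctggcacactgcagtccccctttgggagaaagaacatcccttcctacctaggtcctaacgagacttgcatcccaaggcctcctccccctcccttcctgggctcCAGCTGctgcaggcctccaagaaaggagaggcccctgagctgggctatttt
Myh4: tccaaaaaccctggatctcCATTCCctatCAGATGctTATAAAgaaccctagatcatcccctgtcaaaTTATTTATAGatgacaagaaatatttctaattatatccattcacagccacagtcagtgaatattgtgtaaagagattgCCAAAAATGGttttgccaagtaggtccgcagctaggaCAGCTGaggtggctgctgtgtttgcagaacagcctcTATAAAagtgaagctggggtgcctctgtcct
Pvalb: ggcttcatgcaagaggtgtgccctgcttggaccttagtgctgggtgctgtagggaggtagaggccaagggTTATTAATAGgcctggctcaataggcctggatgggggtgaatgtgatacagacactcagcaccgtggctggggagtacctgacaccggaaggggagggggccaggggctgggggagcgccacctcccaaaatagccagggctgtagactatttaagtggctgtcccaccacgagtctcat
Acta1: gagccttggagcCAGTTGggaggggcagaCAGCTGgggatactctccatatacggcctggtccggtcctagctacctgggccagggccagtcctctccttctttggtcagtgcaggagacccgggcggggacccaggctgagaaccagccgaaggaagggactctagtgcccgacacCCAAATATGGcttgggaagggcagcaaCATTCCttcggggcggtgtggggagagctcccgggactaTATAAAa
Pgam2: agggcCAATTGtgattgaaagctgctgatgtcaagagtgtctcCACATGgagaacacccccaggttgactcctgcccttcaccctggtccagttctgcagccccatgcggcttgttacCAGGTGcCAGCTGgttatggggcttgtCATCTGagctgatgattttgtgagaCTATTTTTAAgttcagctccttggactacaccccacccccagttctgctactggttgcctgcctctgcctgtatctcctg
Myh4, Acta1 and Pgam2 held several kinds of match, while the windows of Ckm and Mylpf held 1 E-box each and that of Pvalb 1 MEF2 match. In Myh4 the MEF2 match began 182 bases before the start and overlaps a TATA match on the other strand, the CArG box began 104 and another TATA box 31 bases before it. In Acta1 the CArG box began 73 and the M-CAT element 46 bases before the start, and in Pgam2 the MEF2 match began 80 bases before it, downstream of 5 E-boxes. A window was at hand for 388 of the 486 muscle-enriched genes and for 8071 of the 9955 genes tested. In the 250 bases before the start, 6.44% of the muscle-enriched and 1.85% of all tested genes held the MEF2 consensus. An open MEF2 box, CTA and TAG with any 4 bases between, was in 5.67% and 2.82%. The consensus needs A or T at these 4 bases, but takes C or T first and A or G last, so neither form contains the other. The CArG box was in 3.35% of the windows of muscle-enriched genes and in 1.26% of all, M-CAT in 15.7% and 10.8%, the E-box in 67.8% and 58.4%, and the TATA box in 9.02% and 7.74%. Over all 27025 genes with a window, tested or not, the shares were 3.01% for the MEF2 consensus, 3.23% for the open box, 1.4% for the CArG box, 12.6% for M-CAT, 66.0% for the E-box and 13% for the TATA box. These are matches of letters, with no binding measured.

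The margin of a gene is its WT muscle mean minus the higher of the WT liver and WT eWAT means, on the log2 scale. The 486 muscle-enriched genes had a median margin of 3.26, against -0.455 over all genes tested. The margin was over 3 for 281 of them, over 4 for 188, over 6 for 85 and over 8 for 34. The higher of the other tissues was eWAT for 308 genes and liver for 178. All 486 were detected on the 3 WT muscle arrays, 219 were also detected in both other tissues, 136 in eWAT but not in liver, 7 in liver but not in eWAT, and 124 in neither. For a gene not detected in a tissue the fold is a lower bound ("at least"), set against the lowest signal that counts as detected on an array (5.47 to 6.19) or the gene's own where that was higher. A tissue counted as detected where at least 1 of its 3 arrays was. With this bound 446 genes had a margin over 2 and the median margin of the 486 was 3.10. A margin printed without "at least" is the measured one and can rest on background signal in the other tissues. Just inside the threshold were Pink1 at 2.00, Zfp770 at 2.01 and Lypd2 at 2.01, and just outside it Arrdc2, Slc44a2 and Klf5, all at 1.99. A further 630 genes were more than 2 above liver only and 136 above eWAT only. Of the muscle-enriched genes 150 had other detected probes, 209 in all. The margin was over 2 for 145 of these probes and under 0 for 12.

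**Figure D2:**
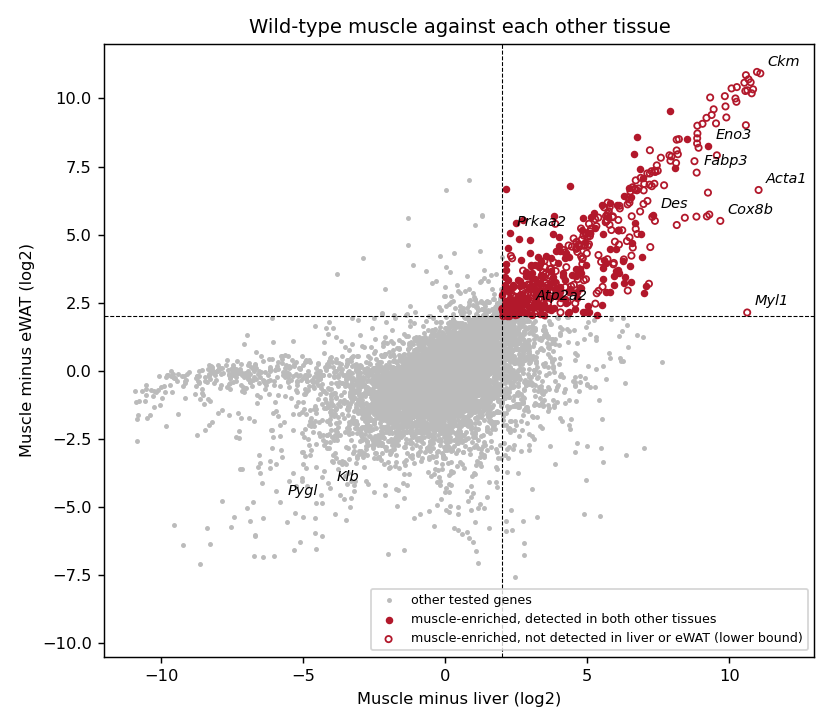
Difference of WT muscle from WT liver (horizontal) and from WT eWAT (vertical) on the log2 scale for all 9955 tested genes, with dashed lines at 2. Open circles are muscle-enriched genes not detected in liver, eWAT or both. They are plotted at the measured difference, which can rest on background signal, and not at the lower bound that the legend names. Filled red circles are those detected in both, and labels mark genes chosen after their values were seen. Myl1 is far above liver but 2.14 above eWAT, and Klb and Pygl lie below both.

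The spread between WT muscle arrays was small, with a median SD of 0.144 over the muscle-enriched genes and a highest SD of 0.714. For 483 of the 486 genes the muscle arrays all lay above every liver and eWAT array, against 23.2% of all tested genes, a count that the choice of the genes largely fixes. The exceptions were C1qtnf4, Hspa1l and Ush1c, in each of which WT eWAT replicate 1 lay within or above the muscle arrays. By limma (adjusted p under 0.10 and over 2-fold, the thresholds of the study), 25.1% of all tested genes were higher and 21.7% lower in WT muscle than in WT liver, 16.9% higher and 20.5% lower than in WT eWAT, 12% higher than in both and 8.8% lower than in both. Of the muscle-enriched genes, 485 were called higher than in both, a count fixed by the rule. The exception was C1qtnf4, with 9.52, 9.33 and 9.80 in WT muscle, 6.07, 5.96 and 5.56 in WT liver, and 10.90, 5.38 and 5.53 in WT eWAT (limma, adjusted p = 0.122 against eWAT). Without WT eWAT replicate 1, with the remaining arrays normalized anew, the rule found 492 genes, 468 of them among the 486. On the normalization of all 9 arrays it found 494 without that replicate, with 23 joining and 15 leaving. Margins and list counts given without it are on this normalization, unless stated. On the authors' own log2 values, whose range is narrower, it found 207 genes, 201 of them among the 486.

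Of the thick filament genes, all 17 tested were higher in WT muscle than in both other tissues and 13 were muscle-enriched, with a median margin of 7.43. Mylpf, the regulatory light chain of fast myosin, was at 16.04, 16.01 and 16.04 in WT muscle, 5.37, 5.50 and 5.45 in WT liver and 5.20, 4.89 and 5.44 in WT eWAT, at least 941-fold higher. Myh4, the myosin heavy chain of the fastest fibers, was at 15.92, 15.89 and 15.93 in WT muscle, 5.02, 4.84 and 4.95 in WT liver and 4.78, 5.13 and 4.91 in WT eWAT, at least 870-fold higher. Both were near 16.06, the top of the scale, in WT muscle and undetected elsewhere, and so was Ckm, with a bound of 866-fold. A signal near the top can understate a difference, and 30 of the muscle-enriched genes had a WT muscle mean over 15. Ttn, the giant spring protein titin, was at least 808-fold and Mybpc2, the fast myosin-binding protein C, at least 735-fold higher. Those short of the rule were Myl4, an embryonic light chain, at 1.32, Myom2 at 1.73, Myh8, the perinatal heavy chain, at 1.75, and Mylk2, the kinase of myosin light chains, at 1.99. Myl1, a light chain of fast myosin, was an exception among fast genes, with 16.06, 16.06 and 16.01 in WT muscle and 5.39, 5.45 and 5.39 in WT liver, but 13.81, 14.04 and 13.85 in WT eWAT, a margin of 2.14. It was high on every eWAT array, not on replicate 1 alone, and another probe of Myl1 had a margin of 7.18.

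Of the thin filament genes, 11 of 14 were muscle-enriched, 12 were higher than in both tissues and 1 was lower than in both (median margin 6.65). The troponin subunits of fast fibers were at the top: Tnnc2, which binds calcium, was at least 922-fold higher, Tnni2, the inhibitory subunit, at least 855-fold, and Tnnt3, which binds tropomyosin, at least 803-fold. Acta1, skeletal muscle actin, was at 15.99, 15.97 and 16.06 in WT muscle and 5.38, 4.93 and 4.61 in WT liver, but at 7.27, 11.21 and 9.63 in WT eWAT. The WT eWAT arrays were far apart. With the remaining arrays normalized anew, the margin of 6.64 (SE 0.76) was 5.65 without WT eWAT replicate 1 and 7.61 without replicate 2. Tpm3, a tropomyosin of slow fibers and of nonmuscle cells, had 8.97, 8.61 and 8.99 in WT muscle, 10.64, 10.54 and 10.40 in WT liver and 11.07, 10.91 and 11.21 in WT eWAT. It was the thin filament gene lower in muscle than in both.

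Among Z-disc and cytoskeleton genes, which anchor the filaments, 24 of 28 were muscle-enriched and 26 were higher than in both tissues, with a median margin of 5.39. Tcap, which caps titin at the Z-disc, was at 15.43, 15.52 and 15.57 in WT muscle, 6.15, 5.49 and 6.90 in WT liver and 5.45, 5.29 and 5.68 in WT eWAT, 643-fold higher than in liver, where 1 of 3 arrays detected it. Myoz1, a calsarcin of fast fibers, was at least 317-fold higher. Among genes detected in both other tissues, Ky, a protein needed for muscle upkeep, ranked first at 367-fold (detected on 1 of 3 liver arrays), followed by Eno3 at 305-fold, Actn3, the Z-disc actinin of fast fibers, at 243-fold, and Myom1 of the M-band at 172-fold. Des, the muscle intermediate filament protein, was 53.0-fold higher than in eWAT, the higher of the other tissues. Of the genes for the dystrophin complex and membrane repair, 11 of 19 were muscle-enriched and 13 were higher than in both (median margin 2.95). Trim72, which seals torn membranes, was 148-fold higher than in liver (detected on 1 of 3 arrays), and Cav3, the caveolin of muscle, at least 9.17-fold higher. Cavin1, which forms caveolae in many cells, was lower than in eWAT by 1.57 and higher than in liver by 2.16.

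**Figure D3:**
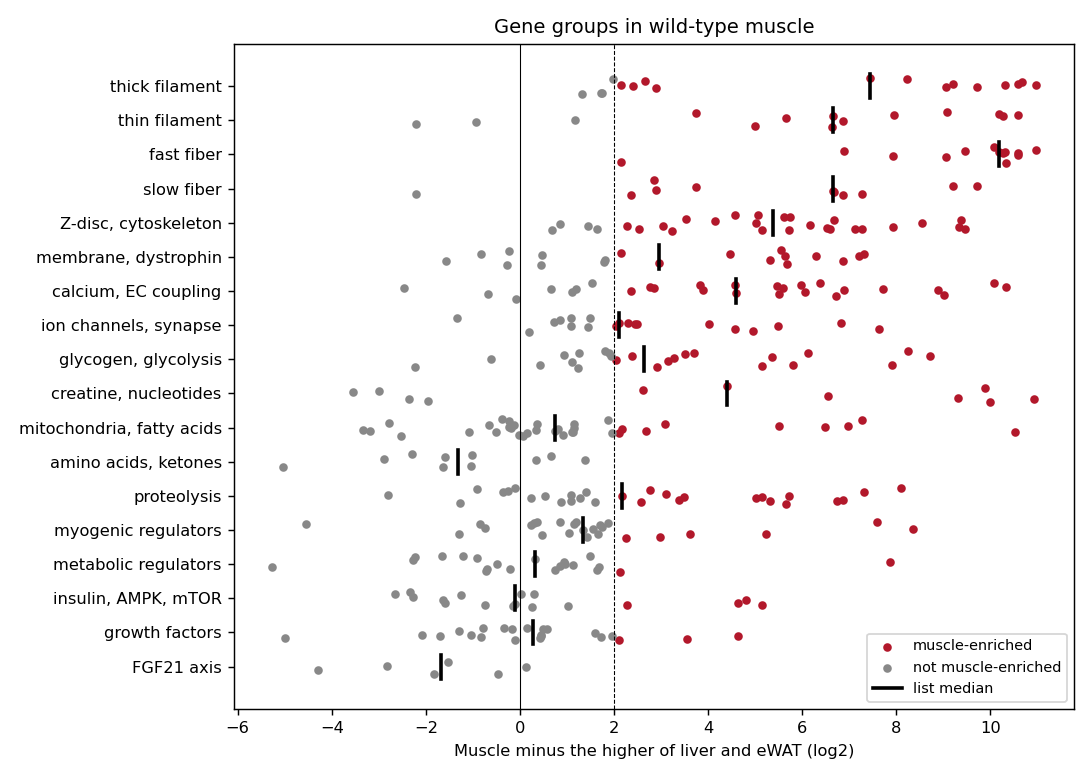
Margin of WT muscle over the higher of WT liver and WT eWAT (horizontal axis, log2) for the tested genes of 18 lists, 1 point per gene, with black bars at list medians and a dashed line at the threshold of 2. Fast fiber genes have a median of 10.19, mitochondrial and fatty acid genes 0.754 and the FGF21 axis -1.68.

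All 13 fast fiber genes were muscle-enriched (median margin 10.19, or 9.65 with undetected genes at their bound), and so were 10 of 11 slow fiber genes (median margin 6.65, or 5.35 at the bound), the exception being Tpm3. The slow genes were the less even ones among the WT muscle arrays. Myh7, the slow myosin heavy chain, was at 8.87, 7.78 and 9.13 in WT muscle, 5.77, 5.78 and 5.55 in WT liver and 5.23, 4.99 and 5.12 in WT eWAT. Tnni1, the slow inhibitory troponin, was at 9.12, 8.38 and 9.18 in WT muscle and at 5.74 or less elsewhere. Myl2, the slow regulatory light chain, was at 14.79, 14.15 and 14.90 in WT muscle and under the detection limit elsewhere. WT muscle replicate 2 was the lowest in each. All 11 slow genes were lowest on that array, against 7 of 13 fast genes and 32.9% of all tested genes, and the median range over the 3 arrays was 0.652 for slow and 0.0688 for fast genes (a description, noticed in the data). In FGF21-Tg muscle, normalized apart from the wild-type arrays, Myh7 was at 10.01, 9.72 and 9.69 and Tnni1 at 10.34, 10.49 and 9.93, above all WT muscle arrays. All FGF21-Tg muscle arrays lay above all WT muscle arrays for 9 of the 11 slow genes and 5 of the 13 fast genes, against 10.2% of all tested genes. Fast genes such as Mylpf, Myh4 and Pvalb lay near the top of the scale, where a signal can understate a difference. The ranges and counts of slow and fast genes are therefore not directly comparable. Whether the part of the muscle that was sampled moved with the slow genes was not tested.

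Genes of excitation-contraction coupling and calcium handling were muscle-enriched in 20 of 27 cases, and 23 were higher than in both tissues (median margin 4.60, or 3.89 at the bound). Pvalb, parvalbumin, the calcium buffer of fast fibers, was at 15.97, 15.95 and 15.95 in WT muscle, 5.26, 5.20 and 4.90 in WT liver and 5.27, 5.90 and 5.70 in WT eWAT, at least 898-fold higher. Atp2a1, the fast calcium pump SERCA1, was at least 823-fold higher. Ryr1, the calcium release channel, was at 15.85, 15.72 and 15.60 in WT muscle, 5.4, 5.0 and 5.01 in WT liver and 6.60, 6.52 and 6.99 in WT eWAT, a margin of 9.02 or 518-fold. Their products bind calcium, pump it back and release it. Sln, sarcolipin, which uncouples the pump, was at least 11-fold higher, and Hrc, a calcium-binding protein of the reticulum, at least 282-fold. Asph, whose gene encodes junctin as well as a hydroxylase, was lower than in eWAT by 2.46 on the probe used, a direction that turned on the deposited values, where another of its probes was the brightest.

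Among ion channels and synaptic genes, 11 of 19 were muscle-enriched and 15 were higher than in both tissues, with a median margin of 2.10, or 1.24 at the bound. Without WT eWAT replicate 1, 10 were muscle-enriched. Chrna1, the alpha subunit of the acetylcholine receptor, was at 10.40, 10.13 and 10.60 in WT muscle, 4.82, 4.72 and 4.60 in WT liver and 4.98, 4.84 and 4.86 in WT eWAT, at least 18.8-fold higher. Chrnb1, the beta subunit, passed the rule narrowly at 2.04, since WT eWAT gave 9.05, 9.54 and 9.48 against 11.44, 11.49 and 11.28 in WT muscle, and missed it at 1.89 without WT eWAT replicate 1. Musk, the receptor kinase that clusters them, had 6.83, 7.58 and 7.21 in WT muscle and was not detected in the other tissues, at least 2.08-fold higher in muscle. The sodium channel subunit Scn4b, at least 111-fold higher, and the potassium channel Kcnc4, at least 93.3-fold, led the list. Agrn, whose protein agrin is released by the nerve as well as by other cells, was lower than in eWAT by 1.34.

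Glycogen and glycolysis genes were muscle-enriched in 14 of 24 cases, and 20 were higher than in both tissues (median margin 2.64). Without WT eWAT replicate 1 Tpi1, which interconverts triose phosphates, passed too, at 2.02 against 1.89 with it, which made 15. Pygm, which breaks down glycogen, was at 13.65, 13.73 and 13.81 in WT muscle, 4.90, 4.97 and 4.67 in WT liver and 4.87, 4.95 and 5.23 in WT eWAT, undetected in both and so at least 191-fold higher. Pfkm, the phosphofructokinase of muscle, was at 15.45, 15.57 and 15.38 in WT muscle, 9.70, 9.73 and 9.58 in WT liver and 9.26, 9.42 and 9.20 in WT eWAT. Enzymes that every cell uses had smaller margins, with 1.10 for Gapdh and 0.94 for Ldha. Pgam2, a phosphoglycerate mutase that sperm also make, rested on 1 array: it was at 14.66, 14.77 and 14.84 in WT muscle, 5.47, 4.99 and 5.11 in WT liver, and 10.26 on WT eWAT replicate 1 against 5.10 and 5.17 on replicates 2 and 3. Its margin was 7.91 with that array and, undetected in both tissues, at least 8.61 without it. Slc2a4, the insulin-responsive glucose transporter GLUT4 of muscle and fat, missed the rule at 1.93, with 11.68, 11.43 and 11.85 in WT muscle, 5.38, 5.37 and 5.38 in WT liver and 9.22, 10.15 and 9.81 in WT eWAT.

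Of the creatine and nucleotide genes 7 of 11 were muscle-enriched, and 7 were called higher than in both by limma (median margin 4.40). Besides Ckm they include Mb, myoglobin, at least 809-fold higher, Ampd1, the muscle AMP deaminase, at least 646-fold, and Ckmt2, the mitochondrial creatine kinase of muscle, at least 547-fold. That bound did not move without WT eWAT replicate 1, on which Ckmt2 was at 7.46 against 5.34 and 5.03. Gamt, which makes creatine, was lower than in WT liver by 3.54, at 8.64, 8.69 and 8.48 in WT muscle against 12.07, 12.49 and 11.88 in WT liver. Slc6a8, the creatine transporter, had a margin of 2.62.

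Of the mitochondrial and fatty acid genes, 9 of 35 were muscle-enriched, 15 were higher than in both and 2 lower than in both, with a median margin of 0.754. The 9 include muscle forms of respiratory subunits and of lipid handling. Cox6a2 was at 15.59, 15.66 and 15.63 in WT muscle, 5.28, 4.93 and 5.07 in WT liver and 5.21, 5.04 and 4.90 in WT eWAT. Cpt1b, which lets fatty acids into muscle mitochondria, was 88.9-fold higher, and Fabp3, the fatty acid carrier of muscle, was at 13.78, 13.60 and 14.02 in WT muscle, 4.95, 4.78 and 5.10 in WT liver and 9.46, 5.03 and 5.07 in WT eWAT, a margin of 7.28 that became at least 7.65 without WT eWAT replicate 1, since it was then undetected in both tissues. Idh3a of the citric acid cycle had a margin of 2.67, and Pdk4, which shuts pyruvate out of the cycle, 3.08, or 2.41 without WT eWAT replicate 1. Common members of the list lay near 0, such as Cox4i1 at 0.07, Hadhb at 0.35 and Acadvl at -0.22. Pnpla2, the lipase that opens fat stores, was lower than in eWAT by 2.77, and the Cd36 probe was not detected in WT muscle. Amino acid and ketone genes had no muscle-enriched member among 10, and 1 was higher than in both, Bckdk, the kinase that restrains breakdown of branched-chain amino acids, with 12.53, 12.28 and 12.45 in WT muscle, 8.90, 9.12 and 8.54 in WT liver and 10.96, 11.11 and 11.05 in WT eWAT.

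The exchange of forms within families was followed in 22 families that were put together after values had been seen. All 22 muscle forms were tested and muscle-enriched, and of the 21 other forms tested 1 was muscle-enriched, the slow calcium pump Atp2a2, while 18 were lower in WT muscle than in liver or eWAT and 12 lower than in both. The glycogen phosphorylase of liver, Pygl, was at 8.46, 8.02 and 7.71 in WT muscle, 14.02, 13.79 and 13.79 in WT liver and 12.26, 13.20 and 13.16 in WT eWAT, the reverse of Pygm. For cytochrome c oxidase, the Cox6a1 probe gave 11.39, 11.43 and 11.74 in WT muscle, 14.01, 14.12 and 13.94 in WT liver and 14.86, 14.73 and 14.56 in WT eWAT, again the reverse of Cox6a2. The Cox8b and Cox8a pair went the same way, with margins of 5.50 and -3.34. Rpl3l, a ribosomal protein of muscle, was at least 787-fold higher, while Rpl3, which stands in its place elsewhere, was at 12.43, 12.24 and 12.50 in WT muscle, 13.99, 13.92 and 13.79 in WT liver and 14.81, 14.48 and 14.69 in WT eWAT. Levels of different probes are not comparable, so the exchange is read from each gene across tissues. Eef1a2, the elongation factor form of muscle and neurons, was at least 493-fold higher, and its partner gene was not tested.

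**Figure D4:**
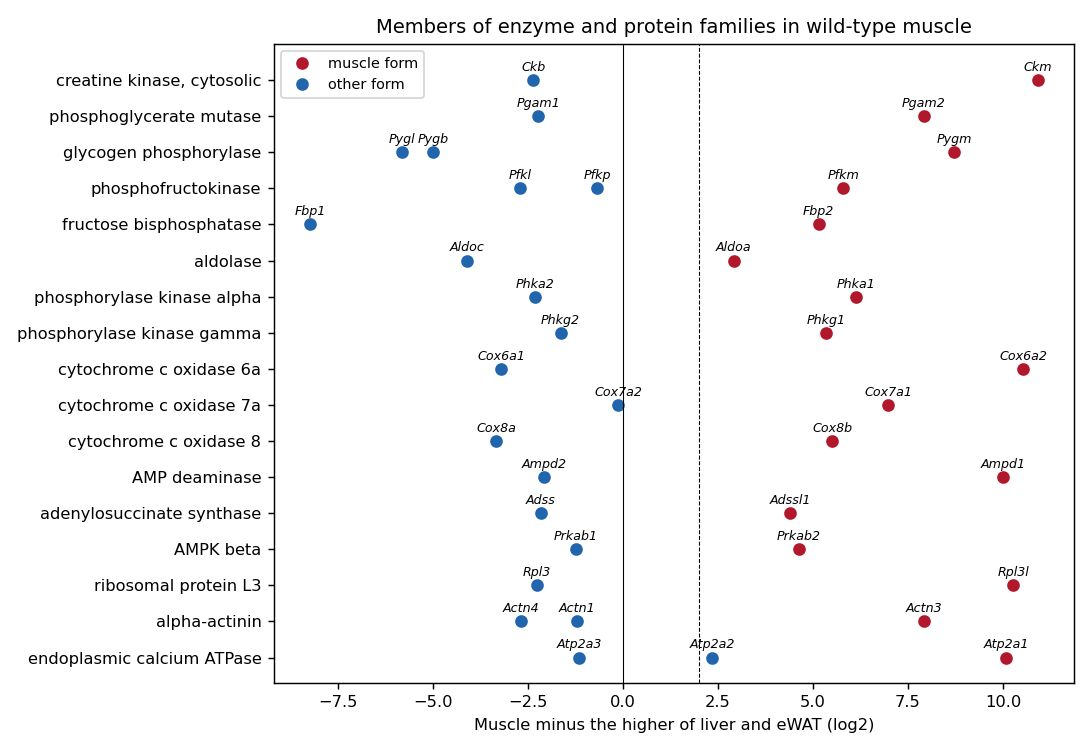
Margin of WT muscle over the higher of WT liver and WT eWAT (horizontal axis, log2) for the muscle form (red) and the other forms (blue) of the 17 families with both kinds tested. Red points lie right of the dashed line at 2, and all blue points but Atp2a2 lie left of 0.

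Among insulin, AMPK and mTOR genes 4 of 17 were muscle-enriched and 5 were higher than in both tissues (median margin -0.11). AMPK, the kinase that senses low energy, showed its muscle subunits. Prkab2, a beta subunit, was at 10.73, 11.19 and 11.17 in WT muscle, 4.93, 4.88 and 4.93 in WT liver and 5.96, 6.26 and 6.97 in WT eWAT, 24.8-fold higher, while Prkab1 was lower than in WT liver by 1.24. The catalytic subunit Prkaa2 was at 11.13, 11.09 and 11.27 in WT muscle, 8.42, 8.60 and 9.64 in WT liver and 6.06, 6.45 and 5.85 in WT eWAT, a margin of 2.28. Rragd, a GTPase that brings mTOR to lysosomes, was 28.0-fold higher than in liver (detected on 1 of 3 arrays). Akt2, a kinase of insulin signaling that was detected on 1 WT muscle array, was lower than in eWAT by 2.65, and its difference from liver was -0.80 (limma, adjusted p = 0.0619, under 2-fold).

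Growth factors and myokines held 3 muscle-enriched genes among 22, and 6 were higher than in both tissues and 1 lower (median margin 0.283). Fndc5, the precursor of irisin, was at 10.65, 10.39 and 10.15 in WT muscle, 5.82, 5.73 and 4.89 in WT liver and 6.77, 5.35 and 5.19 in WT eWAT, at least 19.0-fold higher. Fgf6, a growth factor of muscle, was at least 5.22-fold higher, and the third gene was Musk. Igf1, the growth factor that liver releases under growth hormone, was lower than in both, at 8.58, 8.44 and 8.56 in WT muscle, 13.48, 13.43 and 13.65 in WT liver and 11.76, 12.04 and 12.07 in WT eWAT. Of the FGF21 axis none of 6 genes passed the rule, and the median margin was -1.68. The highest margin was that of Kl, which encodes alpha-Klotho, at 0.12 with and 0.88 without WT eWAT replicate 1, where it was at 7.60 against 5.0 and 4.84 on replicates 2 and 3. FGF21 signals through an FGF receptor joined to beta-Klotho. Klb, which encodes beta-Klotho, was not detected in WT muscle (5.79, 5.82 and 5.27), with 9.47, 10.05 and 9.55 in WT liver and 9.57, 10.54 and 9.67 in WT eWAT. Fgfr1, the main partner receptor in fat, was at 6.71, 6.90 and 6.87 in WT muscle, 4.91, 5.34 and 4.92 in WT liver and 6.79, 7.38 and 7.68 in WT eWAT, not called between muscle and eWAT (limma, adjusted p = 0.114). Fgf21 itself was not detected in WT muscle (5.43, 5.48 and 5.78) and was at 7.95, 7.95 and 9.29 in WT liver.

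Myogenic regulators held 6 muscle-enriched genes among 25, and 15 were higher than in both tissues (median margin 1.35). Without WT eWAT replicate 1 there were 7, with Eya4, a transcriptional cofactor of muscle precursors, at 2.01 against 1.14. Myf6, the MyoD relative of adult fibers, was at 12.90, 12.82 and 12.92 in WT muscle, 5.19, 5.41 and 5.26 in WT liver and 4.97, 5.09 and 5.10 in WT eWAT, at least 106-fold higher. Myod1, which starts the muscle program in precursors, had 7.89, 7.79 and 8.21 in WT muscle and no detection elsewhere, at least 3.52-fold higher. Myog, myogenin, known from developing fibers, missed the rule at 1.19, with 5.8, 6.26 and 7.16 in WT muscle. The splicing factor Rbfox1 led the list at 14.11, 14.31 and 14.18 in WT muscle, 5.64, 5.05 and 5.31 in WT liver and 5.64, 5.95 and 5.98 in WT eWAT, at least 265-fold higher. Mef2c, which binds the MEF2 box, had 13.51, 13.61 and 13.38 in WT muscle, 7.37, 7.52 and 7.30 in WT liver and 9.84, 9.83 and 10.02 in WT eWAT, 12.2-fold higher than in eWAT. Vgll2, a TEAD cofactor, was 37.4-fold higher than in liver (detected on 1 of 3 arrays) and Lbx1, a factor of migrating muscle precursors, at least 2.07-fold higher. Prox1, which liver makes, was lower than in WT liver by 4.54 and not detected in WT muscle.

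Regulators of metabolism held 2 muscle-enriched genes among 21, and 5 were higher than in both tissues (median margin 0.323). That count was 8 without WT eWAT replicate 3. Perm1, which acts with PGC-1 and ERR proteins on mitochondrial genes, was at 12.60, 12.81 and 12.98 in WT muscle, 5.07, 4.73 and 4.70 in WT liver and 5.15, 4.82 and 4.80 in WT eWAT, at least 100-fold higher. Esrrb, an orphan receptor, had a margin of 2.13. Ppargc1a, which encodes PGC-1 alpha, was at 8.85, 9.01 and 9.16 in WT muscle, 7.32, 6.99 and 7.79 in WT liver and 6.08, 5.95 and 5.99 in WT eWAT, a margin of 1.65 and so short of the rule. Pparg, the regulator of fat cells, was lower than in eWAT by 5.26 and Ppara, which drives fatty acid oxidation in liver, lower than in liver by 2.28 and not detected in WT muscle.

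Of the genes for protein breakdown and related enzymes 15 of 29 were muscle-enriched, 20 were higher than in both tissues and 1 was lower than in both (median margin 2.18, or 1.69 at the bound). The ubiquitin ligases of muscle atrophy were among them. Trim63, or MuRF1, was at 11.26, 11.32 and 11.16 in WT muscle, 5.77, 6.18 and 6.35 in WT liver and 5.24, 5.63 and 5.87 in WT eWAT, 35.4-fold higher than in liver, where 2 of 3 arrays detected it at levels near the detection limit. Fbxo32, or atrogin-1, was at 11.62, 12.25 and 11.35 in WT muscle, 6.00, 6.39 and 6.20 in WT liver and 6.17, 7.02 and 7.0 in WT eWAT, 32.2-fold higher. Both were well above the other tissues in fed mice. Mettl21c, a methyltransferase, was at least 131-fold and Asb2, a ligase adaptor, 107-fold higher. Gabarapl1, of autophagosomes, was lower than in both, with 9.51, 9.70 and 9.71 in WT muscle, 12.30, 12.34 and 12.68 in WT liver and 11.39, 11.62 and 11.98 in WT eWAT.

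Markers of other cells were read as a check on what the muscle samples held. Of 9 tendon and fibroblast markers 4 were muscle-enriched, Scx, Cilp2, Fmod and Comp, and 9 were higher than in liver, with sums of 10100 to 14200 in WT muscle, 616 to 892 in WT liver and 14600 to 17900 in WT eWAT. Scx, a factor of tendon cells, was at 8.80, 8.58 and 9.07 in WT muscle and not detected elsewhere. Of 4 Schwann cell and nerve markers Mbp, a myelin protein, was muscle-enriched, at 12.39, 12.06 and 12.04 in WT muscle, 5.96, 5.84 and 5.22 in WT liver and 7.09, 7.23 and 7.47 in WT eWAT, while another Mbp probe had a margin of -2.27. The marker sums were 7880 to 11000 in WT muscle, 366 to 535 in WT liver and 5950 to 7100 in WT eWAT. Of 3 satellite cell markers Chodl passed the rule and 2 were lower than in liver (median margin -1.59). Of 4 brown fat markers Cox7a1 passed (median margin 0.232), and Myh6, the 1 heart marker tested, passed as well, though muscle fibers also make Cox7a1 and Myh6. None of 11 endothelial, 5 smooth muscle, 10 macrophage, 3 erythroid, 6 mesothelium markers and 1 epididymis marker passed. How much such cells add to the list was not tested.

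At the other end, the genes lowest in WT muscle against both tissues were Gsta3, Hp, Sucnr1, Apoc1, Rbp4 and Aldh1a7. Hp, haptoglobin, which binds free hemoglobin, was at 9.46, 8.64 and 8.38 in WT muscle, 15.07, 15.21 and 15.43 in WT liver and 15.76, 15.67 and 15.60 in WT eWAT. Sucnr1, the succinate receptor, was not detected in WT muscle (5.12, 5.14 and 5.35), with 11.94, 12.35 and 11.53 in WT liver and 11.60, 12.24 and 12.13 in WT eWAT. Gsta3, a glutathione transferase, was lower than in WT liver by 8.64, and Rbp4, the plasma carrier of retinol, by 8.27.

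The FGF21-Tg arrays, which the rule did not use, were taken to test the same contrasts. All FGF21-Tg muscle arrays were on chip 6 and all FGF21-Tg liver arrays on chip 5. Chip and tissue cannot be told apart between muscle and liver there either. In FGF21-Tg mice 24.7% of all tested genes were higher in muscle than in liver, 16.5% higher than in eWAT and 12.5% higher than in both (limma). Of the 486 muscle-enriched genes 480, or 98.8%, were higher than in both. The median margin of the 486 was 3.31 in FGF21-Tg arrays, and 427 (87.9%) passed the rule there, out of 487 genes that did. Ckm had a margin of 10.19 in FGF21-Tg arrays, with 15.90, 15.97 and 15.80 in FGF21-Tg muscle, 4.56, 4.71 and 4.78 in FGF21-Tg liver and 4.68, 5.04 and 7.40 in FGF21-Tg eWAT. Acta1, too, was highest among the FGF21-Tg eWAT arrays on replicate 3, at 10.90 against 6.04 and 5.96. Myl1 was again high in fat, at 14.11, 14.05 and 14.24 in FGF21-Tg eWAT against 16.08, 16.02 and 16.03 in FGF21-Tg muscle, and missed the rule at 1.91. The 6 genes not called were Bmpr1b, St3gal6, Mal, Mboat1, Sorl1 and Ush1c, all not called against FGF21-Tg eWAT. Sorl1, a sorting receptor, was at 10.84, 10.78 and 10.72 in FGF21-Tg muscle and 11.93, 10.42 and 10.56 in FGF21-Tg eWAT, against 11.07, 11.28 and 10.99 in WT muscle and 8.4, 9.35 and 8.19 in WT eWAT. Its levels in muscle were close in both genotypes and those in eWAT were apart. Rpl3l was at 11.67 on FGF21-Tg eWAT replicate 1 and at 4.90 and 7.03 on the others, so that its margin was 7.87 in FGF21-Tg arrays against 10.27 in wild-type arrays. Genes of sperm and testis differed in their signal in FGF21-Tg eWAT, with both genotypes normalized together. Prm1 was at 11.37, 10.89 and 8.38 on the 3 FGF21-Tg eWAT arrays and Odf2 at 7.68, 7.41 and 6.72. Fabp9, at 7.96, 6.13 and 6.35, and Cyp17a1, at 10.57, 5.21 and 5.09, were raised on replicate 1 only. Tulp2 was at 6.87, 6.16 and 6.37 and Spata19 at 6.28, 6.03 and 6.00. Whether the 6 genes not called depend on this was not tested.

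**Figure D5:**
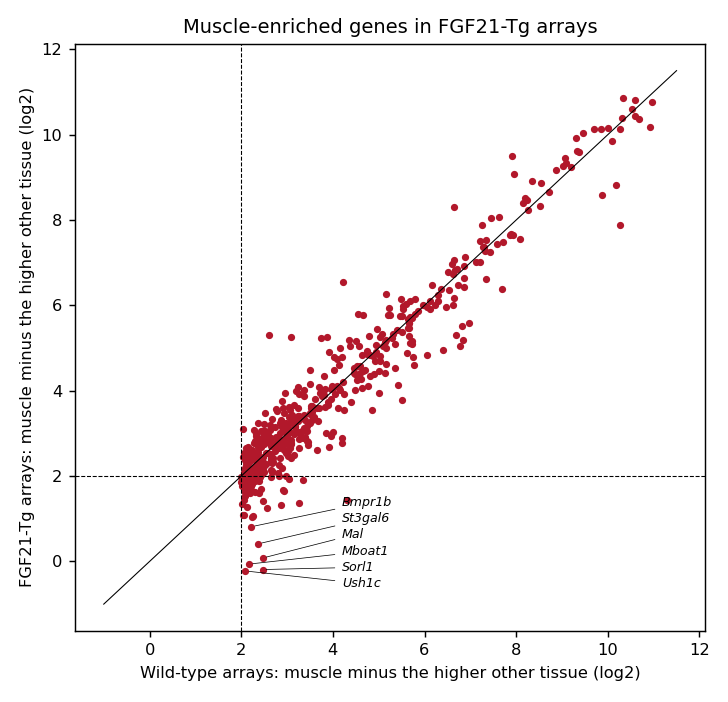
Margin of muscle over the higher of liver and eWAT in FGF21-Tg arrays (vertical axis, log2) against that in wild-type arrays (horizontal axis, log2) for the 486 muscle-enriched genes, with the line of equal values and dashed lines at 2. The named genes have a margin under 1 in FGF21-Tg arrays, and the 427 points above the horizontal dashed line pass the rule there.

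Within chips the contrasts were tested on arrays that share a chip. On chip 4, 6 muscle arrays of calorically restricted and fasted mice were set against WT liver replicates 1 and 2. The restricted mice had been fed a fixed part of their own earlier daily intake for 2 weeks. The fasted mice had been without food for 24 hr. In this chip 4 comparison 24% of all tested genes were higher in muscle and 458 of the 486 muscle-enriched genes (94.2%) were. On chip 6, the WT and FGF21-Tg muscle arrays were set against FGF21-Tg eWAT replicates 2 and 3, and 16.2% of all tested genes and 481 of the muscle-enriched genes (99%) were higher in muscle. Neither comparison matched the diet or genotype of both tissues. Each also reused arrays of the rule, namely WT liver replicates 1 and 2 on chip 4 and the WT muscle arrays on chip 6. The shares among the muscle-enriched genes are therefore partly fixed by the choice of the genes.

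Among all 48 arrays of the series, normalized together, the median signal of the 486 genes was 11.12 to 11.20 on WT muscle and 11.01 to 11.15 on FGF21-Tg muscle arrays. Of the 16 muscle-labeled arrays 12 were at 10.64 or more, and 4, the ad libitum muscle arrays and fasted muscle replicate 1, were at 6.10 to 6.21, within the level of the other tissues. These 4 arrays were used in no comparison given here.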

How the data were processed

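Per the files' headers and the study's methods, the authors hybridized labeled RNA to Illumina MouseRef-8 v2 arrays and deposited, for each of 48 arrays, probe intensities that were not normalized, with a detection p-value per probe. They also deposited log2 values after model-based background correction and quantile normalization (BeadStudio version not given in the sources used here). The 9 wild-type arrays were corrected with normexp (offset 16, negative controls inferred from the detection p-values) and quantile normalized together in limma 3.58.1 (R 4.3.3), and the 9 FGF21-Tg arrays were treated alike on their own. The platform annotation gave a single symbol to 23978 of the 25697 probes, more than 1 symbol to 0 probes and no symbol to 1719. The brightest probe stood for a gene, and 9955 genes with a detection p-value under 0.05 on at least 3 of the 9 arrays were tested, out of 16593 named. The 3 tissues shared 1 limma fit, with Benjamini-Hochberg adjusted p under 0.10 and over 2-fold as the thresholds, and lists were described by counts with no test of the set. The scripts were tested on simulated data.

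The muscle-enriched rule and the gene lists were chosen with earlier results of these data known, so that the wild-type values are a description. The isoform families, the testis genes, the comparison of slow with fast genes, the positional and neuronal genes, the promoters shown and the labels in plots were chosen after values were seen. Named genes are Ckm, the 12 largest margins detected in both other tissues, the 12 largest bounds, the up to 5 highest and 3 lowest members of each list, the 3 genes on each side of the threshold, leading markers, the FGF21 axis and the 6 genes lowest in muscle. Any other gene named was chosen after its values were seen. Alternatives were other offsets, no background correction, median scaling, the deposited log2 values, other detection filters, every probe, normalization over 48 arrays, SAM, a fit of the tissue pair alone, other thresholds, the replicate number as a block and each array left out. Windows before transcription starts came from RefSeq (GRCm38.p6).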

Additional observations from a re-analysis of the deposited data

Results flagged for a closer look

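The difference of muscle from another tissue was itself compared between the genotypes, in 1 limma fit of all 18 arrays normalized together (adjusted p under 0.10, over 2-fold). Between FGF21-Tg and wild-type mice the muscle-minus-liver difference was called changed for 88 of the 9955 genes (0.884%), 6 of them muscle-enriched, and the muscle-minus-eWAT difference for 47 genes (0.472%), 10 of them muscle-enriched. At an unadjusted p under 0.05 there were 62 (12.8%) and 82 (16.9%) muscle-enriched genes, against 9.94% and 10.5% of all tested genes. The wild-type differences subtracted here also chose the muscle-enriched genes. That choice alone favors smaller differences in FGF21-Tg arrays, so the shares of the 2 sets cannot be compared as a result. The values below are those of FGF21-Tg minus wild-type, and per-array signals come from each genotype normalized on its own.

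For some genes the muscle arrays of the genotypes did not overlap. Over all tested genes, the FGF21-Tg muscle arrays all lay above the WT muscle arrays for 10.2% and all below them for 6.02%. Dusp26, a protein phosphatase, had a muscle-minus-eWAT difference larger by 2.27 (adjusted p = 0.00395), with 13.06, 13.17 and 13.24 in FGF21-Tg muscle against 11.88, 11.49 and 11.75 in WT muscle. Amd2, an enzyme of polyamine synthesis, changed by -2.09 (adjusted p = 0.0454), with 10.55, 10.04 and 9.59 in FGF21-Tg muscle against 12.01, 12.42 and 11.76 in WT muscle. Smox, which oxidizes the polyamine spermine, changed by -1.36 (adjusted p = 0.0546), with 13.63, 12.88 and 13.42 in FGF21-Tg muscle against 14.16, 14.37 and 14.23 in WT muscle. Both polyamine genes, a pair noticed among the genes called, were lower in FGF21-Tg muscle on every array. Tnni1, the slow troponin, changed by 1.44 against liver (adjusted p = 0.0947) and by 1.68 against eWAT (adjusted p = 0.0656). Smtnl2 changed by -1.08 against liver (adjusted p = 0.0996) and by -1.35 against eWAT (adjusted p = 0.0546), Kcng4, a potassium channel subunit, by -1.46 against eWAT (adjusted p = 0.0789) and Tecta by -1.36 against eWAT (adjusted p = 0.0789).

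For others the liver or eWAT arrays of the genotypes did not overlap. The share of all tested genes with such a gap was not counted for these tissues, so the gaps cannot be read as particular to these genes. Sorl1 changed by -2.67 (adjusted p = 0.0187), St3gal6, a sialyltransferase, by -1.97 (adjusted p = 0.0967) and Syngr1 by -1.36 (adjusted p = 0.086), all against eWAT. Rcan2, a calcineurin inhibitor, changed by -2.46 against liver (adjusted p = 0.0163), with 7.85, 8.82 and 9.70 in FGF21-Tg liver against 6.38, 6.61 and 6.87 in WT liver. Gpc1, a glypican, changed by 1.82 (adjusted p = 0.0416), with 7.86, 7.06 and 8.12 in FGF21-Tg liver against 9.17, 9.96 and 9.59 in WT liver. Aqp4, a water channel of fast fibers, changed by 2.67 against liver (adjusted p = 0.0169), with muscle higher and liver lower in FGF21-Tg mice. Ppp1r3c, which brings a phosphatase to glycogen, changed by 1.02 against liver (adjusted p = 0.0951).

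Of named genes outside the muscle-enriched set, Fgf21, the transgene, changed by -5.18 against liver (adjusted p = 2.09e-05) and by -5.96 against eWAT (adjusted p = 1.37e-05). Its signal was 8.31, 7.49 and 7.69 in FGF21-Tg muscle, 15.93, 15.93 and 15.75 in FGF21-Tg liver and 14.43, 13.07 and 13.97 in FGF21-Tg eWAT. The signal was thus high in FGF21-Tg eWAT too, though the paper describes the transgene as selective for hepatocytes. The source of the eWAT signal was not tested. Ppargc1a changed by -1.41 against liver (adjusted p = 0.0241) and by -1.23 against eWAT (adjusted p = 0.0789). It had 8.79, 8.80 and 9.12 in FGF21-Tg muscle, 8.41, 8.57 and 8.98 in FGF21-Tg liver and 7.18, 7.02 and 7.09 in FGF21-Tg eWAT. Sucnr1 changed by 2.98 against liver (adjusted p = 0.00443) and Cd74 by -1.08 against liver (adjusted p = 0.0478), while Sdc4 changed by -1.74 (adjusted p = 0.00395) and S100a1 by -1.24 (adjusted p = 0.0747) against eWAT.

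Outside the comparisons, 4 arrays labeled as eWAT carried the muscle-enriched genes at the level of muscle, with a median signal of 11.1 on ad libitum eWAT replicate 3, 11.1 on fasted eWAT replicate 1, 11.1 on fasted eWAT replicate 2 and 10.7 on fasted eWAT replicate 3, against 6.14 to 6.32 on WT eWAT arrays. They were used in no comparison. Among 842 detected probes with no gene name, 45 (5.34%) passed the muscle rule.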

How the results depend on the processing

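Of the wild-type comparisons, 4655 genes were called between muscle and liver and 3723 between muscle and eWAT, and 486 were muscle-enriched. Without background correction these counts were 3006, 2214 and 314, and on the deposited log2 values 1691, 1285 and 207. With a rule of 1 in place of 2, 1198 genes were muscle-enriched, and with 3 there were 281. In FGF21-Tg arrays the deposited log2 values gave 1630 calls against liver, 1272 against eWAT and 282 muscle-enriched genes higher than in both, against 4665, 3719 and 480. The cause of these shifts was not tested. The median margin of all genes was -0.455, -0.267 without background correction and -0.0467 on the deposited log2 values. Offsets 1 and 50, median scaling, other detection filters, every probe, normalization over 48 arrays, SAM, the fit of the tissue pair alone and adjusted p under 0.05 stayed within 1.5 times of the counts they were run for. Leaving out each array gave 4623 to 4695 calls against liver, 3672 to 3781 against eWAT and 473 to 492 muscle-enriched genes, and in FGF21-Tg arrays 4636 to 4713, 3696 to 3756 and 478 to 480. Same-numbered replicates did not deviate together (correlations of -0.03 to 0.08), which gives no sign of pairing. Such correlations cannot show whether the samples came from the same mice. With the replicate block there were 4657 and 3731 calls, and 4666, 3725 and 480 in FGF21-Tg arrays. Asph was the only named gene to reverse, at 2.65 above eWAT on the deposited log2 values against -2.46, because another of its probes stood for it there. Of the other values of named genes across alternatives, 4426 kept direction and side of the threshold, 166 kept direction but lost the threshold and 15 passed it newly. Of list counts 15 moved by over 1.5 times and 625 did not.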

Other observations

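Genes that set position along the body in the embryo were among the muscle-enriched genes (picked after their values were seen). Hoxc10, a gene of the hindlimb region, was at 11.60, 11.88 and 11.91 in WT muscle, 5.03, 5.50 and 4.81 in WT liver and 5.15, 5.03 and 5.26 in WT eWAT, at least 50.1-fold higher, and its margin was 6.16 in FGF21-Tg arrays. Hoxd10 was at 10.21, 10.48 and 9.80 in WT muscle, 5.35, 5.27 and 5.39 in WT liver and 5.99, 5.93 and 6.26 in WT eWAT. Hoxd9, by contrast, was also present in fat, with 9.68, 9.75 and 9.59 in WT muscle against 7.29, 7.63 and 7.66 in WT eWAT. En1, Zic1 and Six2, further factors of embryonic patterning, were at least 3.12-fold, at least 2.94-fold and at least 2.81-fold higher.

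Some muscle-enriched genes are better known from neurons (also picked after their values were seen). Mapt, the microtubule protein tau, was at 10.51, 10.50 and 10.65 in WT muscle, 6.53, 6.46 and 6.71 in WT liver and 6.29, 6.05 and 5.57 in WT eWAT, 15.9-fold higher than in liver. Cntnap2, a contactin partner at the axon, was at least 12.7-fold and Kcnc1, a fast potassium channel, at least 33.3-fold higher. Another Kcnc1 probe had a margin of 1.22, short of the rule. Secreted proteins included Egf, epidermal growth factor, at 10.63, 10.68 and 10.33 in WT muscle, 5.28, 5.01 and 5.17 in WT liver and 5.98, 6.57 and 6.34 in WT eWAT. Angptl7 was at least 56.6-fold and Chad, a cartilage matrix protein, at least 73.9-fold higher.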
